A study of Mus musculus with 6 samples.

Results

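The translation initiation and elongation factors are the proteins that load the ribosome onto an mRNA, find its start codon and carry it along the coding sequence. Genes were taken as members where a probe set, the group of array probes that reads a transcript, carried a single gene symbol that began with Eif or Eef and a digit. A gene with several such probe sets was represented by the one with the highest mean over the 6 arrays. This gave 64 of the 22180 genes that had a probe set of their own. The rule reads symbols and mean levels, not differences between groups, although the gene group was picked with earlier results of these data known. The arrays came from gastrocnemius muscle of 3 transgenic and 3 wild-type (WT) male mice, aged 3 months, of the strain that the labels give as C57 and the study's methods as C57BL/6, with 1 mouse per array. The transgenic mice carried a porcine DGAT1 cDNA, which encodes the enzyme of the last step of triacylglycerol synthesis, behind a porcine muscle creatine kinase (MCK) promoter, and were F1 offspring of founders mated with WT mice. Their GEO labels call the same mice a DGAT1 knockout, and the number of founder lines is not given. All mice ate a chow diet, and the WT mice carried no transgene.

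Translation starts when eIF2, bound to GTP and the initiator tRNA, joins the small ribosomal subunit with eIF1, eIF1A, eIF3 and eIF5, while the eIF4 proteins bind the mRNA cap and unwind the mRNA behind it. The eIF4E-binding proteins block the cap-binding protein until the kinase mTOR phosphorylates them, and kinases that phosphorylate eIF2 slow the exchange of its GDP by eIF2B. Elongation then needs eEF1A to deliver each aminoacyl-tRNA and eEF2 to move the ribosome on. In skeletal muscle these steps respond to insulin, amino acids and contraction, mostly by phosphorylation, which an mRNA array does not read.

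Every value below is a log2 expression value unless another scale is named, so a difference of 1 is a factor of 2 in signal, and they were not set against each other between genes because each probe set has its own brightness. The tissue label was checked with 10 genes of muscle fibers, whose mean log2 value lay between 11.51 and 11.75 on every array. Of these 10 genes 1, Myh7, was lower in every transgenic than in every WT mouse (log2 difference -0.33). Muscle creatine kinase Ckm averaged 13.41 ± 0.06 in transgenic and 13.53 ± 0.12 in WT mice (SD, n = 3 each). Albumin and 7 other hepatocyte genes had mean log2 values of 4.77 to 8.79 in transgenic and 4.48 to 8.88 in WT mice. Albumin alone read 10.90, 5.54 and 11.69 in transgenic mice, against 11.46, 9.31 and 6.04 in WT mice. The mean of 5 adipocyte genes was 7.96 to 8.51 in transgenic and 7.65 to 8.34 in WT mice. All 5 had higher means in transgenic mice, from 0.02 (Fabp4) to 0.62 (Plin1) with a median of 0.26, and the groups overlapped in each. Mbp, the 1 Schwann cell gene read, was higher in every transgenic mouse (log2 difference 0.33). Of 4 neuron genes 1, Rbfox3, was separated, lower in transgenic mice (-0.42). The groups overlapped in all 4 endothelial genes. The macrophage genes Cd68, Csf1r, Adgre1, C1qa and Mrc1 had summed linear signals of 790 to 1101 in transgenic and 703 to 859 in WT mice. Cd68, a lysosomal protein of macrophages, passed the study threshold, at 7.75, 7.69 and 8.44 in transgenic mice, against 7.26, 7.18 and 7.51 in WT mice (log2 difference 0.64, unadjusted p = 0.0288 and adjusted p = 1.0 from limma), and Csf1r was higher in every transgenic than in every WT mouse without passing it. In the other macrophage genes the groups overlapped, with log2 differences of 0.34 for Adgre1, 0.23 for Mrc1 and -0.01 for C1qa. The part of these cells in the values below was not tested. Mouse Dgat1 had log2 values of 7.65 to 8.09 in transgenic and 7.26 to 7.96 in WT mice, and mouse probes need not read the porcine transgene.

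The pair of eEF1A genes is shown by sequence because they encode near-identical elongation factors with different tissue use, Eef1a1 in most tissues and Eef1a2 in mature skeletal muscle, heart and neurons. RefSeq promoter entries of 300 bases, most of them upstream of the annotated gene start, existed for 49 of the 64 genes. Those of Eef1a2 (chr2:181156966-181157265, minus strand) and Eef1a1 (chr9:78481675-78481974, minus strand, both build GRCm38.p6) read 5′ to 3′ as follows, with matches to TATANAA and to CANNTG, searched on both strands, in capitals.
Eef1a2: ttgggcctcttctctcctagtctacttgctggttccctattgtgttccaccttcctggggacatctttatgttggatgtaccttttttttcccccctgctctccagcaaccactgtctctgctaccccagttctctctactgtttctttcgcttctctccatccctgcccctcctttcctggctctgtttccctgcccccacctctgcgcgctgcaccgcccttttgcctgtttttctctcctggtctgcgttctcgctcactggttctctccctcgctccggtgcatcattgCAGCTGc
Eef1a1: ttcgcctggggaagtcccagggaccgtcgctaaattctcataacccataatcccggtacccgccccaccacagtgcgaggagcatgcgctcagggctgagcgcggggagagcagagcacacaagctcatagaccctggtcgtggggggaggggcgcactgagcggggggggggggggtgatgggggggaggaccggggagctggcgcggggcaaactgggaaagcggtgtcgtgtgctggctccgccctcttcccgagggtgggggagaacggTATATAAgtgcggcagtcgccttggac
The Eef1a2 entry was 55.0% G and C with 8 CpG pairs, and 75.7% of its bases were C or T on the printed strand. That of Eef1a1 was 66.7% G and C with 22 CpG pairs, and 40.3% of its bases were C or T. The median over all 32851 entries was 52.7% G and C. TATANAA was matched once in Eef1a1, starting 23 bases after the annotated start, and 0 times in Eef1a2, and was present in 11.3% of all entries. CANNTG, the core of the sites of muscle-forming transcription factors, was matched once in Eef1a2, 43 bases after the start, and 0 times in Eef1a1, against 72.3% of all entries. GGGCGG, which does not overlap those matches, occurred once in Eef1a2 and 2 times in Eef1a1, and in 35.7% of all entries. A match describes the letters only.

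No translation factor gene was called between transgenic and WT mice. By limma's moderated test 0 of the 64 had an adjusted p under 0.05, as did 0% of all 41345 probe sets, and the smallest adjusted p among the members was 1.0. At the threshold of the study's methods, an unadjusted p under 0.05 with at least a 1.5-fold change, 0 of the 64 were called, where 0.537% of all genes were. Without the fold minimum 0 were called as well by limma, where 1.72% of all genes were. The test named in the study's methods also gave 0 members at an unadjusted p under 0.05. Over all genes it put 58 past the study threshold, against 119 by limma. Its share of all genes without the fold minimum is not given here, so nothing is read from its count of members. Log2 fold changes lay between -0.30 (Eif4ebp1) and 0.20 (Eif5a2), and 90.2% of all genes had changes no larger than that of Eif4ebp1. The median over the members was -0.04, beside -0.02 over all genes. In 45 of the 64 genes the mean was lower in transgenic mice, where 54.8% of all genes were lower, and single arrays moved this count as given below. Fewer cells and less RNA per cell cannot be told apart in whole muscle.

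The 3 transgenic and 3 WT values overlapped in every one of the 64 genes, that is, in 0 of them did all transgenic mice lie on one side of all WT mice. Over all genes 7.33% were separated in this way, and 7.35% of the 2559 genes at or above the median level of the members. The 95% confidence interval of the fold change lay wholly within 1.5-fold in either direction for 52 of the 64 genes (81.2%), compared with 57.6% of all genes and 67.9% of the genes at or above that level. Intervals reached a median of 0.40 to each side on the log2 scale. For the remaining 12 genes the interval reached past a 1.5-fold change at this number of mice.

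**Figure D1:**
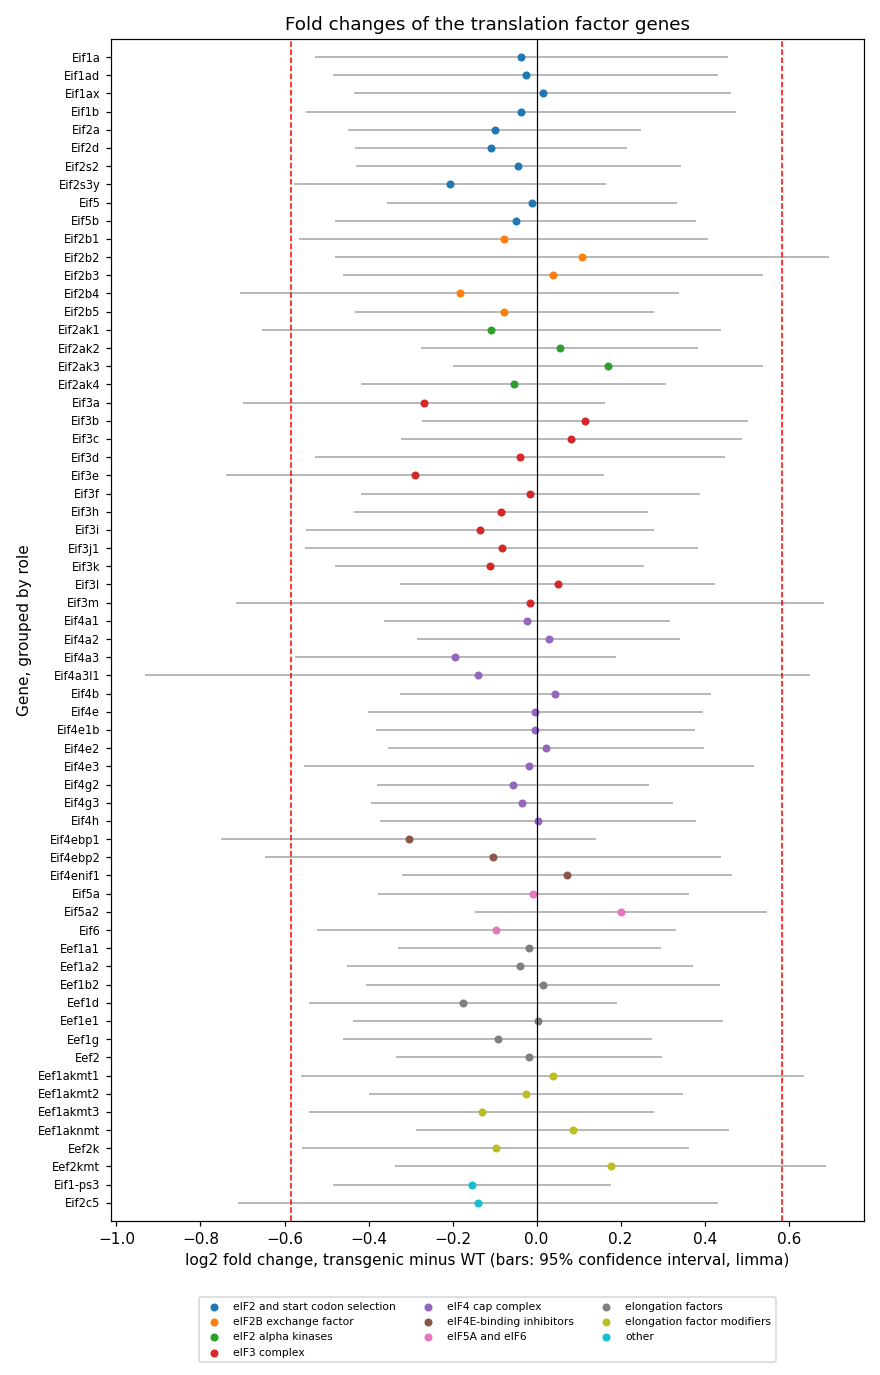
Log2 fold changes (transgenic minus WT, horizontal axis) of the 64 translation factor genes, 1 row per gene in groups by role, with 95% confidence intervals from limma as bars and dashed lines at a 1.5-fold change. All points lie between -0.30 and 0.20, and every interval includes 0.

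Among the 10 genes grouped under eIF2 and start codon selection 9 had the lower mean in transgenic mice, where 54.8% of all genes were lower. That share stands beside each such count below. In this group 0 were called, and the median log2 fold change was -0.04. Eif2s3y, the Y-linked copy of the eIF2 gamma subunit gene, read 8.08, 7.67 and 7.93 in transgenic mice, against 8.14, 8.06 and 8.11 in WT mice. Transgenic replicate 1 lay inside the WT range and the other transgenic mice below it (log2 difference -0.21, standard error (SE) 0.16, 95% confidence interval -0.58 to 0.16). Without transgenic replicate 2 the difference was -0.0951. Its X-linked partner Eif2s3x was read only by probe sets that also list another gene. Eif1a and Eif1ax, which encode forms of the scanning factor eIF1A, differed by -0.04 and 0.01. Eif5, the activator of the eIF2 GTPase, had log2 values of 9.69 ± 0.08 in transgenic and 9.70 ± 0.15 in WT mice (SD, n = 3 each). Eif5b, which joins the large subunit, had 7.44 ± 0.15 in transgenic and 7.49 ± 0.26 in WT mice (SD, n = 3 each), so in neither did the groups stand apart beyond the SD. Eif2s2, Eif2a, Eif2d, Eif1b and Eif1ad lay between -0.11 and -0.03.

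The 5 subunits of the exchange factor eIF2B split into 3 lower and 2 higher in transgenic mice, with a median of -0.08. The catalytic subunit gene Eif2b5 read 6.92, 6.86 and 6.67 in transgenic mice, against 7.02, 6.77 and 6.89 in WT mice, which overlapped (log2 difference -0.08, SE 0.15). Eif2b2 had 8.18, 8.001 and 8.22 in transgenic mice, against 8.33, 7.48 and 8.27 in WT mice. WT replicate 2 was far below the other 5 mice for Eif2b2, whose log2 difference of 0.11 (SE 0.25) was among the 5 highest. Eif2b1, Eif2b3 and Eif2b4 had changes of -0.08, 0.04 and -0.18.

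None of the 4 eIF2 alpha kinase genes was called, and their median log2 fold change was 0.00. Eif2ak3, which encodes PERK, the kinase of the endoplasmic reticulum stress response, read 6.93, 6.80 and 6.63 in transgenic mice, against 6.63, 6.47 and 6.75 in WT mice. The groups overlapped, and the log2 fold change was 0.17 (SE 0.16, 95% confidence interval -0.20 to 0.54). Eif2ak4, the amino acid sensor GCN2, had 6.12 ± 0.13 in transgenic and 6.18 ± 0.15 in WT mice (SD, n = 3 each). The heme-regulated Eif2ak1 had a change of -0.11 and the double-stranded RNA sensor Eif2ak2, or PKR, of 0.05. For Eif2ak1 the interval of -0.65 to 0.44 was the only one of the 4 that reached past a 1.5-fold change.

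The eIF3 complex, a scaffold on the small ribosomal subunit, had 12 measured subunit genes, 9 of them with lower means in transgenic mice, and its median was -0.06. Eif3e read 8.70, 8.21 and 8.72 in transgenic mice, against 8.84, 8.68 and 8.98 in WT mice. Transgenic replicate 2 lay below all other mice while the other transgenic mice lay between WT replicates 2 and 1 (log2 difference -0.29, SE 0.19, 95% confidence interval -0.74 to 0.16). Without transgenic replicate 2 the change of Eif3e was -0.12. The core subunit gene Eif3a had 8.58, 8.34 and 8.37 in transgenic mice, against 8.93, 8.40 and 8.76 in WT mice. Only WT replicate 2 overlapped the transgenic mice in Eif3a (log2 difference -0.27, SE 0.18, 95% confidence interval -0.70 to 0.16). Its change was -0.15 without WT replicate 1 and -0.42 without WT replicate 2 (unadjusted p = 0.0380 from limma). Another core subunit, Eif3b, ran the other way, with 9.94, 9.71 and 9.92 in transgenic mice, against 9.97, 9.60 and 9.66 in WT mice. The log2 difference was 0.11 (SE 0.16), and WT replicate 1 was the highest of the 6. Eif3f, which is known as a target of the muscle atrophy ubiquitin ligase Fbxo32, had 10.91 ± 0.14 in transgenic and 10.93 ± 0.22 in WT mice (SD, n = 3 each). The 8 others ranged from -0.14 (Eif3i) to 0.08 (Eif3c).

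**Figure D2:**
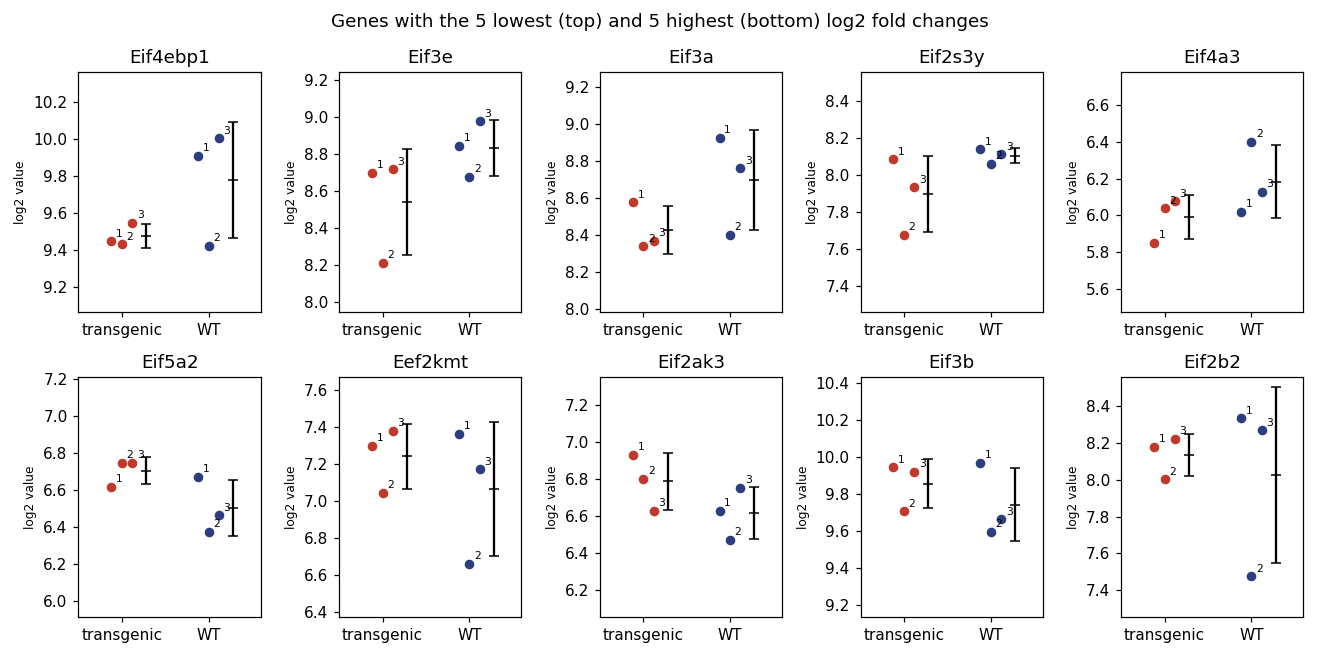
Log2 values (vertical axes, each panel spanning the same range of 1.3) of the genes with the 5 lowest (upper row) and 5 highest (lower row) log2 fold changes, with transgenic mice in red at left, WT mice in blue at right, replicate numbers beside the points, and the mean and SD in black. The groups overlap in each panel, and WT replicate 2 is the lowest WT mouse in all of them but Eif4a3.

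The cap-binding eIF4 group, of 12 genes, had a median of -0.01. Eif4e, which encodes the cap-binding protein, read 8.80, 8.85 and 8.99 in transgenic mice, against 9.07, 8.62 and 8.95 in WT mice (log2 difference -0.0032, SE 0.17). The transgenic values lay inside the WT range. Eif4a1, the helicase of the complex, averaged 13.18 ± 0.09 in transgenic and 13.20 ± 0.12 in WT mice, and Eif4a2, its paralog, 9.93 ± 0.06 in transgenic and 9.91 ± 0.06 in WT mice (SD, n = 3 each). Eif4a3 acts in the exon junction complex rather than at the cap. It had 5.85, 6.04 and 6.08 in transgenic mice, against 6.02, 6.40 and 6.13 in WT mice, with a log2 fold change of -0.19 (SE 0.16) and WT replicate 2 as the highest mouse. A brighter probe set, which Eif4a3 shares with Eif4a3l1 and Gm5576, had a change of 0.04. The scaffold relative Eif4g2 had 10.54 ± 0.05 in transgenic and 10.59 ± 0.10 in WT mice (SD, n = 3 each). Eif4e3, a further cap-binding homolog, had a change of -0.02, and the helicase cofactor Eif4b of 0.04. The related gene Eif4a3l1 had the widest interval of all members, -0.93 to 0.65.

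Eif4ebp1, which encodes the repressor 4E-BP1 that mTOR controls, had the lowest log2 fold change of all 64 genes. Its log2 values were 9.45, 9.43 and 9.55 in transgenic mice, against 9.91, 9.42 and 10.01 in WT mice. The transgenic mice lay close together, WT replicates 1 and 3 lay above them, and WT replicate 2 lay just below them. The log2 fold change was -0.30 (SE 0.19, 95% confidence interval -0.75 to 0.14), or 0.810 of the WT level, with an unadjusted p of 0.151 and an adjusted p of 1.0 from limma. Without WT replicate 2 it was -0.48 (unadjusted p = 0.0137 from limma), still under the fold minimum, and without WT replicate 3 it was -0.19 (unadjusted p = 0.394 from limma). Eif4ebp2, a second repressor of this kind, had 10.17, 10.10 and 10.05 in transgenic mice, against 10.22, 9.77 and 10.64 in WT mice. Its transgenic values all lay inside the WT range (log2 difference -0.10, SE 0.23), and without WT replicate 3 the sign of its change turned, to 0.11. Eif4enif1, which carries eIF4E into the nucleus, had a change of 0.07.

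Eif5a2 had the highest log2 fold change of the members. It encodes a less widely expressed form of eIF5A, the factor that carries the amino acid hypusine and helps ribosomes past proline stretches. Its log2 values were 6.62, 6.75 and 6.75 in transgenic mice, against 6.67, 6.37 and 6.46 in WT mice, so that WT replicate 1 lay above transgenic replicate 1. The log2 fold change was 0.20 (SE 0.15, 95% confidence interval -0.15 to 0.55, adjusted p = 1.0 from limma). The widely expressed form Eif5a had 8.57 ± 0.02 in transgenic and 8.58 ± 0.21 in WT mice (SD, n = 3 each). Eif6, which keeps the large ribosomal subunit apart from the small one, had 8.32 ± 0.07 in transgenic and 8.42 ± 0.29 in WT mice (SD, n = 3 each).

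The 7 elongation factor genes had a median log2 fold change of -0.02, and all 7 intervals lay within 1.5-fold. Eef1a2 read 12.03, 11.99 and 11.90 in transgenic mice, against 12.002, 11.75 and 12.28 in WT mice, and its transgenic values lay inside the WT range (log2 difference -0.04, SE 0.17). For Eef1a1 the values were 11.96, 11.98 and 12.09 in transgenic mice, against 12.03, 11.98 and 12.08 in WT mice (log2 difference -0.02, SE 0.13, 95% confidence interval -0.33 to 0.30). Processed copies of Eef1a1 exist in the genome, and 2 other probe sets name it beside such a gene model. A much dimmer probe set that names only Eef1a1 had 6.36 ± 0.08 in transgenic and 6.41 ± 0.05 in WT mice (SD, n = 3 each), a change of -0.04. Eef2, the translocase, had 12.57, 12.48 and 12.52 in transgenic mice, against 12.58, 12.45 and 12.61 in WT mice (log2 difference -0.02, SE 0.13). Of the subunits that recharge eEF1A with GTP, Eef1b2 had a change of 0.02, Eef1g of -0.09 and Eef1d of -0.18. Eef1e1, which sits in the tRNA synthetase complex, had a change of 0.00.

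Enzymes that modify the elongation factors were also not called, with 3 of 6 higher in transgenic mice. Eef2k, the kinase that switches eEF2 off, read 8.28, 8.09 and 8.18 in transgenic mice, against 8.50, 7.91 and 8.44 in WT mice, with the transgenic mice inside the WT range (log2 difference -0.10, SE 0.19). Eef2kmt, a lysine methyltransferase of eEF2, had 7.30, 7.05 and 7.38 in transgenic mice, against 7.37, 6.66 and 7.17 in WT mice. The log2 difference was 0.18 (SE 0.22), and WT replicate 2 lay below the other mice. The 4 methyltransferases of eEF1A ranged from -0.13 (Eef1akmt3) to 0.09 (Eef1aknmt). Also taken in by their symbols were Eif1-ps3, a pseudogene with a change of -0.15, and Eif2c5, a noncoding gene with -0.14, whose name follows an older term for the Argonaute family.

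Paralogs and partners were compared inside each array, as the difference between their log2 values, for 5 pairs. Eif4ebp1 minus Eif4e was 0.65, 0.58 and 0.56 in transgenic mice, against 0.84, 0.80 and 1.06 in WT mice. Every transgenic mouse lay below every WT mouse, with a difference of -0.30 between the group means (exact permutation test, two-sided, p = 0.1, adjusted p = 0.5 over the 5 pairs). The smallest p that 3 mice against 3 can give is 0.1. Eif5a2 minus Eif5a averaged -1.87 ± 0.09 in transgenic and -2.08 ± 0.20 in WT mice (SD, n = 3 each, exact permutation test, two-sided, p = 0.2, adjusted p = 0.5), and the difference between groups of 0.21 was 0.0926 without WT replicate 3. Eef1a2 minus Eef1a1 averaged -0.04 ± 0.13 in transgenic and -0.02 ± 0.21 in WT mice (SD, n = 3 each, exact permutation test, p = 1, adjusted p = 1). The pairs Eif4a2 with Eif4a1 and Eif1ax with Eif1a differed by 0.05 each between groups (exact permutation tests, p = 0.7 and p = 0.8, adjusted p = 1 for both). Without WT replicate 2 the difference for Eif4ebp1 and Eif4e was -0.35, and without WT replicate 3, -0.22.

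The translation factor genes differed together between arrays of 1 group. WT replicate 2 held the lowest of the 6 values in 39 of the 64 genes and transgenic replicate 2 in 14, and WT replicate 1 held the highest in 32. The median of log2 value minus gene mean was 0.05, -0.11 and -0.02 in transgenic replicates 1, 2 and 3, and 0.15, -0.16 and 0.08 in WT replicates 1, 2 and 3. Over the 2559 genes at or above the median level of the members, these medians were 0.06, -0.08 and -0.01 in transgenic mice and 0.16, -0.19 and 0.06 in WT mice, so the arrays took the same order there. WT replicate 2 was lowest in 58.6% of those genes and in 60.9% of the members, compared with 28.5% of all genes. The spread of values over all probe sets was narrowest on the same array, with a standard deviation of 1.82 in WT replicate 2, 1.96 in WT replicate 1 and 1.86 to 1.93 on the other 4. When all arrays were given the same distribution by quantile normalization, the members' medians were 0.04, -0.08 and -0.03 in transgenic mice and 0.07, -0.11 and 0.07 in WT mice, and WT replicate 2 was lowest in 29 of the 64 genes.

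**Figure D3:**
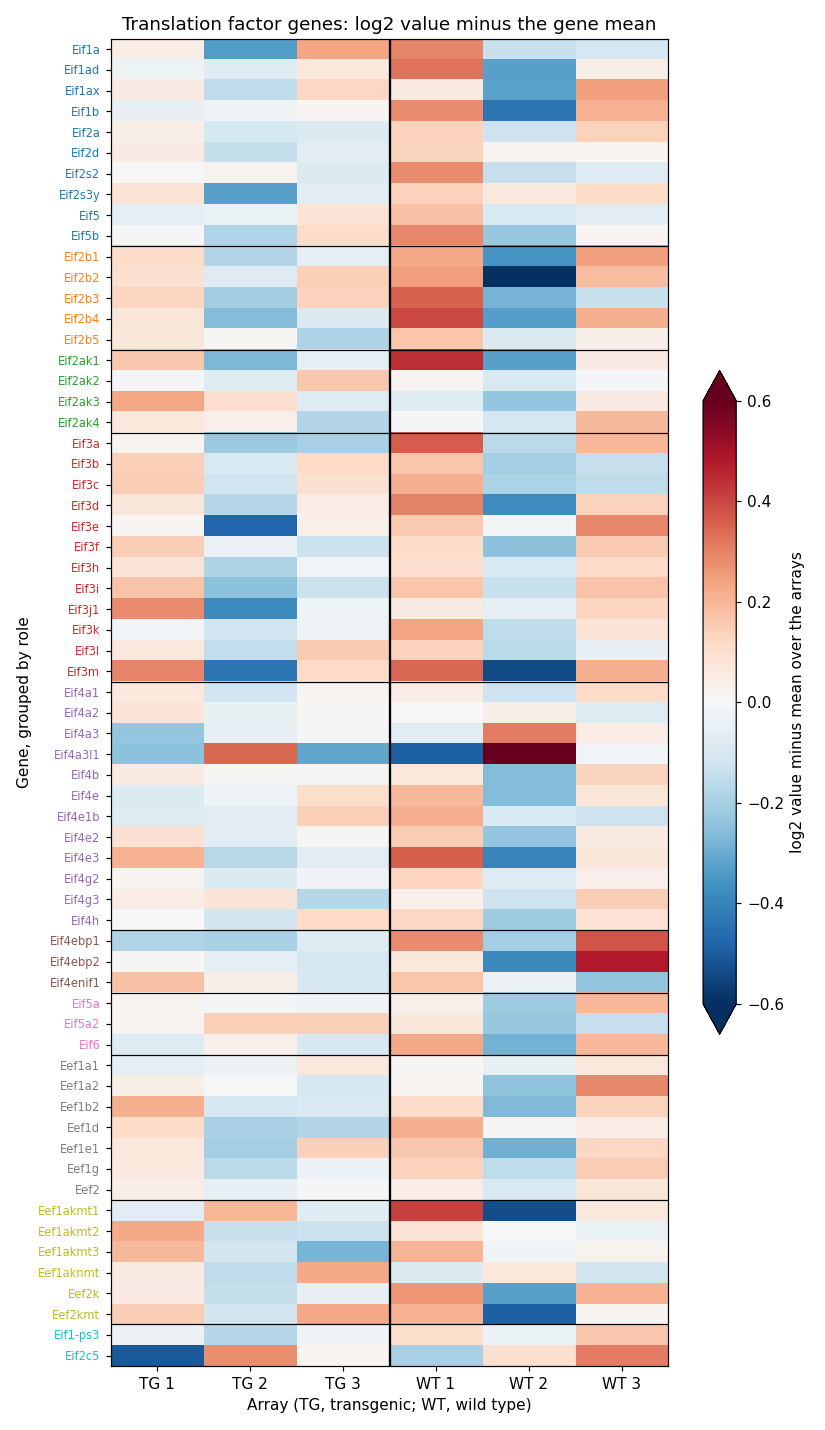
Log2 value minus the mean of the gene over the 6 arrays (colour, blue below and red above, saturated at 0.6) for the 64 translation factor genes in rows, grouped by role, and the transgenic and WT arrays in columns. WT replicate 2, lowest in 39 genes, is the bluest column and WT replicate 1, highest in 32, the reddest, while Eif4a3 and Eif4a3l1 have their highest value in WT replicate 2.

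The position of the groups moved with single mice of both groups. Without WT replicate 2 the members' median log2 fold change was -0.13, with 55 of 64 genes lower in transgenic mice, beside -0.05 over all genes. Without WT replicate 1 it was 0.02, with 27 of 64 lower, beside -0.0039 over all genes. Without transgenic replicate 2 the median was 0.0010, with 31 of 64 lower, and without WT replicate 3 it was -0.0083, with 33 of 64 lower. In 21 of the 64 genes the groups no longer overlapped without WT replicate 2, where 25.3% of all genes were separated with those 5 arrays. At an unadjusted p under 0.05 there were then 2 genes, Eif4ebp1 and Eif3a, where 4.15% of all genes were under it in the same fit, and 0 past the study threshold. By role, WT replicate 2 deviated most in eIF2B (median -0.33) and in eIF5A and eIF6 (-0.23), and WT replicate 1 in eIF2B (0.25) and in start codon selection (0.23). The largest deviation of any role was in WT replicate 3, for the 3 eIF4E-binding inhibitors (0.38), the group that holds Eif4ebp1.

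**Figure D4:**
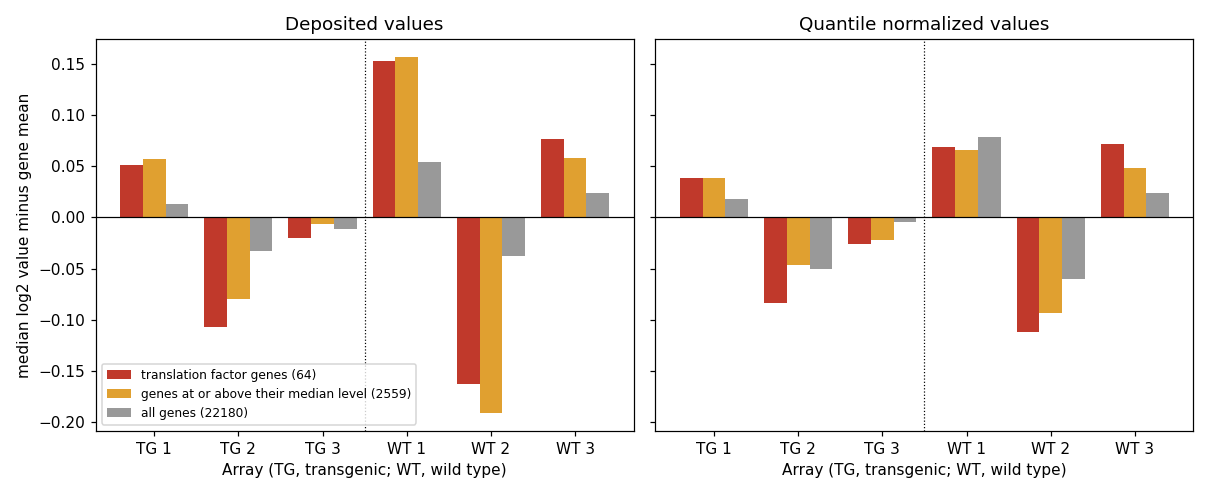
Median of log2 value minus gene mean (vertical axis) on each array, transgenic (TG) left of WT, for the 64 translation factor genes (red), the 2559 genes at or above their median level (yellow) and all 22180 genes (grey), in the deposited values (left) and after quantile normalization (right). The red and yellow bars share their sign on every array, with the lowest red bar, -0.16, in WT replicate 2.

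Other genes of the translation pathway, in lists by function that were chosen with earlier results of these data known, gave 0 calls at the study threshold in each of 5 lists. Over all genes 0.537% were called, a share at which lists of this size would hold few calls or none. The groups did not overlap for 1 gene of TOR signalling, 2 of the integrated stress response and 1 helper or termination gene. They overlapped in every gene of the other lists, where 7.33% of all genes were separated. Of 32 genes of TOR signalling 21 had lower means in transgenic mice, with a median of -0.04. Sesn1, which encodes a stress-induced inhibitor of mTORC1, read 8.25, 7.73 and 7.92 in transgenic mice, against 8.87, 8.37 and 8.37 in WT mice. All transgenic mice lay below all WT mice, and the log2 fold change was -0.57 (SE 0.21, 95% confidence interval -1.07 to -0.07, unadjusted p = 0.0318 and adjusted p = 1.0 from limma), just under the fold minimum. Sesn1 passed it without transgenic replicate 1, without WT replicate 2 and without WT replicate 3. The highest of that list was Tbc1d7, a subunit of the TSC complex, at 0.22.

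Of 17 genes of the integrated stress response, which phosphorylated eIF2 sets off, 10 had higher means in transgenic mice and the median was 0.06. Psat1, at 0.20, was higher in every transgenic than in every WT mouse, and Nupr1, at -0.20, was lower in every transgenic mouse. Atf3 read 7.56, 6.74 and 8.44 in transgenic mice, against 6.94, 7.20 and 6.99 in WT mice. Transgenic replicate 2 was the lowest of the 6 mice and transgenic replicate 3 the highest (log2 difference 0.54, SE 0.40), and without transgenic replicate 2 Atf3 passed the study threshold. Cebpb, at -0.40, was the lowest of the list. The 26 helper and termination genes had a median of 0.01 and ran from Paip2b, an inhibitor of the poly(A)-binding protein, at -0.17, to Tpt1. Tpt1, which encodes the translationally controlled tumor protein, had 11.93, 11.90 and 11.96 in transgenic mice, against 11.80, 11.90 and 10.11 in WT mice, with a log2 fold change of 0.66 (SE 0.46). WT replicate 3 lay far below the other 5 mice, and WT replicate 2 lay only just below the lowest transgenic mouse, by less than the digits given. Mitochondrial translation factors had 8 of 9 genes lower in transgenic mice with a median of -0.07, from Mtrf1 at -0.23 to Mtrf1l at 0.00. Among 20 genes of the tRNA synthetase list, which besides cytosolic enzymes holds the mitochondrial Fars2 and the synthetase complex protein Aimp1, the median was -0.01, from Eprs at -0.24 to Hars at 0.13.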

How the data were processed

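The deposited values were log2 expression values of 41345 probe sets on 6 Affymetrix whole-transcript mouse arrays, 1 gastrocnemius muscle each. RMA is named in the submitters' processing notes, and the study's methods also name the software GCOS and GeneSpring. Array intensities before normalization were not analysed here. RMA shrinks low signals, so folds of dim genes are understated, and the number of arrays limits the precision. Of the probe sets, 23521 carried 1 gene symbol in the platform annotation, 1820 several and 16004 none. All 64 member genes matched RefSeq by Entrez gene identifier. Eif1, Eif2s1, Eif3g and Eif4g1 were not analysed here, and Eif2s3x and Eif4ebp3 only through probe sets shared with another gene.

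Transgenic and WT mice were compared with limma 3.58.1 (R 4.3.3) over all probe sets, with Benjamini-Hochberg adjustment, and the script was tested on simulated data. The study threshold was an unadjusted p under 0.05 with at least a 1.5-fold change. Differences within arrays were tested by exact permutation. The named genes were a fixed roster of factors, members past the study threshold, and the 5 highest and 5 lowest, with the highest and lowest gene of each other list. Members and list genes named beyond these were named after their values were seen. Members and lists were chosen with earlier results of these data known. Alternatives covered a replicate block, each array left out, quantile normalization, median centring, a filter on dim probe sets, array weights, a prior trend, the methods' t-test and the choice of probe set. Leaving out both arrays numbered 2 was added after the data were seen.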

Additional observations from a re-analysis of the deposited data

How the results depend on the processing

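The count of translation factor genes past the study threshold, or with an adjusted p under 0.05, was 0 under every alternative run. Of 509 values of 34 named genes under these alternatives, 454 kept their direction and side of the threshold, 55 turned their sign, and none crossed the threshold. With array weights, which gave WT replicate 3 a weight of 5.15 and WT replicate 2 one of 0.370, Eef1b2 turned to -0.11, Eif1a to 0.12, Eif1ax to -0.16, Eif2b2 to -0.0640 and Eif5 to 0.0612. The same weights left 4 members at an unadjusted p under 0.05, where 11.8% of all genes were, the lowest adjusted p in limma being 0.225. Under quantile normalization Eef2 was 0.0057 and Eif4a1 0.0049. Eif4a1 was 0.0617 as the mean of its probe sets and 0.15 by its second probe set.

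Genes whose groups did not overlap numbered 0 as deposited, 4 after quantile normalization (Eif1-ps3, Eif2s3y, Eif3e, Eif4g2; 9.36% of all genes), 1 after median centring (Eif4a3; 6.22% of all genes), 24 without both arrays numbered 2, where 36.2% of all genes were separated, and 0 to 21 when single arrays were left out, where 12.9% to 25.3% of all genes were. Other pathway genes past the study threshold numbered 1 with array weights (Tpt1), where 535 of all 22180 genes passed it. They numbered 1 without both arrays numbered 2, and 0 to 1 when single arrays were left out. Without a single array, 1.06% to 4.15% of all genes had an unadjusted p under 0.05 in limma, before any fold minimum. The share of all genes past the study threshold is not given here for these fits, so nothing is read from these counts.

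The same-numbered transgenic and WT arrays had correlations of 0.33, 0.40 and -0.17 between their deviations from the group means. Unlike-numbered arrays ran from -0.46 (transgenic replicate 2 with WT replicate 1) to 0.17 (transgenic replicate 3 with WT replicate 1). Arrays numbered 1 and 2 were thus more alike across groups than any unlike-numbered arrays, and those numbered 3 were not. The main fit did not take the numbers as pairs, and whether they mark a shared factor was not tested. With a replicate block, 165 genes passed the study threshold instead of 119, members stayed at 0, and 12 members moved the same way in every same-numbered pair, as did 26.3% of all genes.

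Leaving out 1 array at a time turned the sign of the following log2 fold changes, given as lowest and highest. Among elongation factors and their kinase and methyltransferase, Eef1a1 ran between -0.0546 and 0.00995, Eef1a2 between -0.168 and 0.0954, Eef1b2 between -0.113 and 0.0858, Eef2 between -0.0661 and 0.0137, Eef2k between -0.284 and 0.00958, and Eef2kmt between -0.0261 and 0.325. Among start codon, eIF2B and kinase genes, Eif1a ran between -0.16 and 0.12, Eif1ax between -0.14 and 0.14, Eif5 between -0.0586 and 0.0737, Eif5b between -0.176 and 0.0820, Eif2b2 between -0.17 and 0.26, Eif2ak1 between -0.298 and 0.0859, Eif2ak2 between -0.0116 and 0.104, and Eif2ak4 between -0.119 and 0.0281. Among the rest, Eif3f ran between -0.141 and 0.0589, Eif4a1 between -0.0900 and 0.0290, Eif4a2 between -0.00253 and 0.0574, Eif4e between -0.134 and 0.0926, Eif4e3 between -0.22 and 0.16, Eif4ebp2 between -0.32 and 0.11, and Eif5a between -0.117 and 0.0895. Within arrays, Eef1a2 minus Eef1a1 ran between -0.124 and 0.0854, Eif1ax minus Eif1a between -0.0547 and 0.239, and Eif4a2 minus Eif4a1 between -0.0313 and 0.145. Of the 5 lowest and 5 highest genes, those that kept their sign were Eif4ebp1, between -0.48 and -0.19, Eif3e, -0.38 and -0.12, Eif3a, -0.42 and -0.15, Eif2s3y, -0.30 and -0.0951, Eif4a3, -0.28 and -0.0852, Eif5a2, 0.14 and 0.29, Eif2ak3, 0.0966 and 0.25, and Eif3b, 0.0410 and 0.23. The cause of these shifts was not tested.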

Other observations

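Several factors were also read by probe sets that entered no count above. The dimmest probe set of Eif4a2 read 6.45, 6.47 and 6.61 in transgenic mice, against 6.31, 6.29 and 5.77 in WT mice. All transgenic mice lay above all WT mice there (log2 difference 0.38, SE 0.19, adjusted p = 1.0 from limma). The groups overlapped in every other factor probe set that entered no count, and were separated in 2982 of all 41345 probe sets. The brightest probe set of Eif4a2 differed by 0.03. The gene hosts small nucleolar RNAs, and probe sets that list it with Snord2 and Snora81 differed by 0.05 and -0.03.

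Among probe sets that name a factor beside another gene, the one for Aimp2 and Eif2ak1 read 9.78, 10.42 and 10.13 in transgenic mice, against 10.25, 9.13 and 9.88 in WT mice (log2 difference 0.36, SE 0.31), and the groups overlapped. The brighter of those shared by Eif2s3x, the X-linked eIF2 gamma gene, and Gm2223 had 7.21, 6.52 and 6.88 in transgenic mice, against 7.09, 6.71 and 6.66 in WT mice. That for Eif4ebp3 and Ankhd1 had 6.78, 7.02 and 6.59 in transgenic mice, against 6.75, 6.84 and 6.92 in WT mice, with a log2 fold change of -0.04.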
